A study of Mus musculus with 4 samples.

Results

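The 31 genes described here encode proteins that copy DNA in S phase, the part of the cell cycle in which the genome is duplicated. They were taken by gene symbol from the 32287 features of the deposited matrices, and each symbol matched 1 feature. Measured values played no role in that match by symbol, but the members were chosen with earlier results of these data known. The cells were live nucleated cells sorted from digested mouse hearts, labelled as interstitial cells, and RNA was measured in single droplets from the 3′ end of the transcript. There were 4 libraries, 1 per group. All hearts carried Tcf21-MerCreMer, a Cre recombinase that tamoxifen activates and that the Tcf21 gene drives, and all received tamoxifen. The 2 deletion-labelled libraries carried in addition a floxed allele, and the design of the series gives a conditional loss of TCF21, a factor that controls transcription in fibroblasts of the heart, in those cells. In each genotype, 1 library came from hearts without injury and 1 from hearts 3 days after myocardial infarction, the death of heart muscle behind a blocked artery. The floxed part of the gene, the age of the mice and their number per library are not in the labels.

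Before S phase, ORC, Cdc6 and Cdt1 load the ring of Mcm2 to Mcm7 onto replication origins, a step called licensing, which geminin (Gmnn) blocks later in the cycle. Cdc45 and the GINS complex then turn the ring into an active helicase, the polymerase alpha and primase complex lays down primers, and the clamp Pcna holds the replicative polymerases on DNA. Most of these genes are transcribed under E2F factors from late G1, so their RNA is commonly used to mark cells that are about to copy DNA or are copying it. Fibroblasts and endothelial cells of the adult heart seldom divide at rest, and stromal cells are known to enter the cycle in the first days after infarction. Mature neutrophils have left the cycle.

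By role, 11 members belonged to licensing and the helicase (Mcm2 to Mcm7, Cdc6, Cdt1, Gmnn, Cdc45, Gins2), 7 to polymerase, clamp and strand synthesis (Pcna, Pclaf, Pola1, Prim1, Rfc2, Fen1, Rpa2) and 3 to nucleotide supply (Rrm1, Rrm2, Tyms). A further 5 act in repair and checkpoint at the fork (Ung, Exo1, Dtl, Clspn, Tipin), and 5 in chromatin and histone supply (Uhrf1, Hells, Chaf1b, Nasp, Slbp).

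The promoters of 25 of the 31 members were in the RefSeq table of GRCm38.p6, which gives 250 bases before and 50 bases after each annotated start. These windows were searched on both strands for the letters TTTCCCGC, TTTCGCGC, TTTGCCGC and TTTGGCGC, spellings of the element bound by E2F factors. At least 1 spelling was found for 12 of the 25 members, namely Mcm3, Mcm5, Mcm6, Mcm7, Cdc6, Cdt1, Pclaf, Pola1, Dtl, Clspn, Uhrf1 and Hells, against 2.605% of the 27025 genes in the table. The letters CCAAT were present for 18 of the 25 members, against 41.1% of all genes. A match is a description of these letters and no evidence of binding. The windows of 4 members that recur in the results are shown because they hold such a match, 5′ to 3′ on the strand of the gene, with the matched letters in capitals. In Mcm5 and Mcm6 a match on each strand overlaps the other, which makes the run of capitals longer. Mcm6 has a further match nearer to its start, not shown.
Mcm5, chr8:75109311-75109408, plus strand: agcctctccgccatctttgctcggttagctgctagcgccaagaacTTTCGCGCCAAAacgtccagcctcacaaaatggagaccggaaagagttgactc
Mcm6, chr1:128359763-128359860, minus strand: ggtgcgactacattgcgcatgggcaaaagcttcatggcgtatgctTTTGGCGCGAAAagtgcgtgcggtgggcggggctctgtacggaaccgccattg
Dtl, chr1:191575545-191575597, minus strand: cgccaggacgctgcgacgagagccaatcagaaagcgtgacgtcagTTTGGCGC
Uhrf1, chr17:56304083-56304180, plus strand: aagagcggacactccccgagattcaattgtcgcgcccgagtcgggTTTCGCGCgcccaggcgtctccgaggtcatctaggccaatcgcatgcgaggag
The first matched base lies 153 bases before the annotated start in Mcm5, 110 in Mcm6, 8 in Dtl and 185 in Uhrf1. The Uhrf1 window lies inside the span of the longest GENCODE model of Uhrf1 (chromosome 17, 56303321 to 56323486), outside its annotated exons, and the other 3 windows lie upstream of the gene. In the same annotation of GRCm38, Mcm5 (ENSMUSG00000005410) covers chromosome 8, 75109569 to 75128439, Mcm6 (ENSMUSG00000026355) chromosome 1, 128331590 to 128359664, and Dtl (ENSMUSG00000037474) chromosome 1, 191537356 to 191575544.

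The libraries held 55710468 to 129704045 UMIs, the counts of distinct RNA molecules, over 9149 to 11541 barcodes, and 19 to 41 barcode sequences were shared between any pair of libraries. After filtering, 8289 to 10142 cells per library were clustered without the members and the other listed cell cycle genes. No member thus helped to define a cell class. Cell cycle genes outside the lists, such as Cdca8 and Kif22, were not held out. Tcf21 itself went against the label: in fibroblasts it stood at 95.6 and 22.2 CPM (counts per 1000000 UMIs of the class) in the control libraries, without and after infarction, and at 146 and 32.5 CPM in the deletion-labelled libraries. A 3′ count can come from transcript outside a deleted part, so this value checks nothing about a deletion, and every difference by genotype below is between libraries as labelled. With 1 library per group the spread between animals is unknown. No test was run, and the intervals given are 95% intervals that cover counting error only. Within the fibroblast class all 10 fibroblast markers were found in each library, but the same markers named the class, so this is a description only.

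The DNA replication genes were several times higher in fibroblasts and endothelial cells after infarction than without it, while the cells named mononuclear phagocytes stood at nearly the same level in all 4 libraries. That class leaves out cluster 4, 1302 and 1002 infarction cells with phagocyte genes but no class name, which held 1036 and 981 CPM and with which the phagocyte sum was higher after infarction. Summed over the 31 members, fibroblasts held 308 CPM (300 to 315) in the control and 293 CPM (287 to 300) in the deletion-labelled library without infarction. After infarction they held 1516 CPM (1502 to 1530) and 1091 CPM (1080 to 1102). Both infarction libraries were thus well above both libraries without injury, and the control library was the higher of the pair.

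Endothelial cells held 410 and 413 CPM without infarction and 1281 and 1353 CPM after it, control first in each pair. Phagocytes held 465, 513, 483 and 505 CPM in the same order. These 4 phagocyte sums lay within 1.10-fold of each other.

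**Figure D1:**
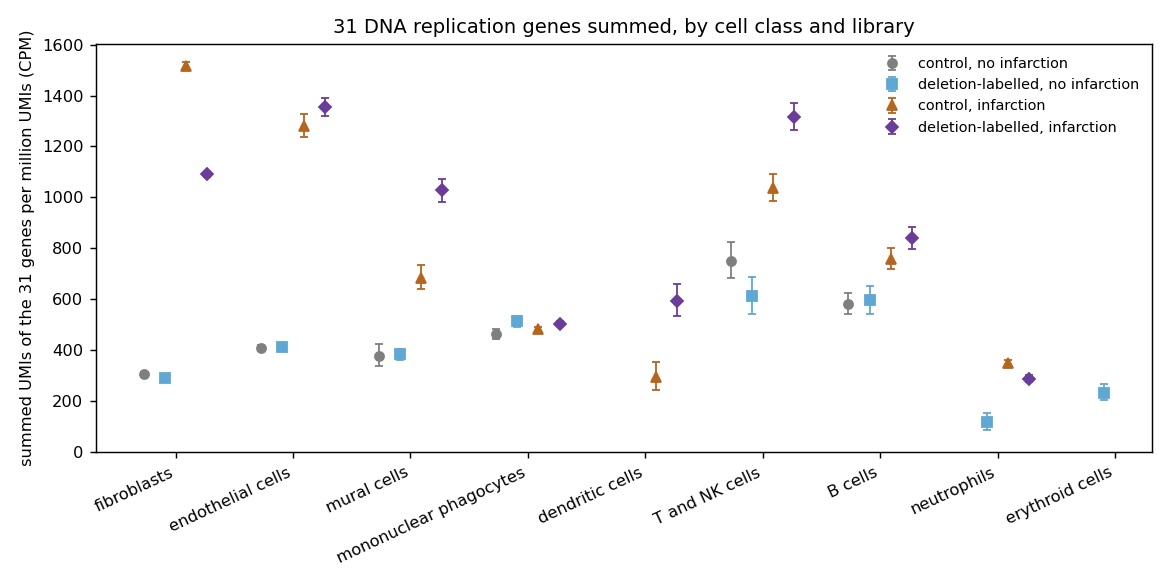
Summed level of the 31 DNA replication genes (vertical axis, CPM) in each cell class with at least 50 cells, 1 point per library with its exact Poisson interval. Fibroblasts and endothelial cells of the 2 infarction libraries sit above 1000 CPM, against 293 to 413 CPM without infarction, and phagocytes sit between 465 and 513 CPM in all 4 libraries.

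Lymphocytes and mural cells lay between these patterns. T and NK cells held 752 and 612 CPM without infarction and 1038 and 1318 CPM after it, B cells 583 and 596 CPM and then 760 and 840 CPM, and mural cells 380 and 385 CPM and then 685 and 1028 CPM. In B cells the last value depends on few cells: cluster 8, with 565 of 576 infarction B cells in the control library and 475 of 485 in the other, stood at 591 and 564 CPM without infarction and at 762 and 588 CPM after it. In uninjured hearts the order of the sums from low to high was fibroblasts, mural cells, endothelial cells, phagocytes, B cells and T and NK cells in the control library. Mural cells and endothelial cells were neighbours in that order with overlapping counting intervals. Neutrophils, set beside the other classes as cells known to have left the cycle, held 118 CPM without infarction in the deletion-labelled library (104 cells) and 350 and 289 CPM after infarction. Their level was thus not fixed: it was 2.45-fold higher after infarction in the deletion-labelled pair (log2 ratio 1.29, 0.89 to 1.73). The control library without infarction held 34 neutrophils, too few to be used.

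To set cells side by side at equal depth, they were also thinned to 2000 UMIs each and scored for how many of the 31 members they held. At a fixed depth this share rises with the class sum even where all cells are alike. It thus does not separate more cells that express the genes from more RNA of the genes per cell. In fibroblasts without infarction, 2.03% of cells (1.44 to 2.77%) in the control and 1.94% (1.37 to 2.65%) in the deletion-labelled library held at least 3 members. After infarction these shares were 31.1% (28.0 to 34.2%, 277 of 892 cells) and 18.7% (16.7 to 20.9%, 263 of 1404 cells). The share in infarction neutrophils, thinned the same way, was 2.33% in the control and 2.14% in the deletion-labelled library, and the fibroblast shares without infarction were no higher than these. In uninjured neutrophils of the deletion-labelled library it was 1 of 100 cells (0.0253 to 5.45%), an interval that holds both fibroblast shares.

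Before thinning, 51.4, 64.2, 92.5 and 76.0% of fibroblasts held at least 3 members, at median depths of 10533, 13472.5, 32553 and 20320 UMIs per cell, and 3.67 and 3.27% of infarction neutrophils at 2128 and 2227.5 UMIs. Thinning left out 6 to 24 fibroblasts per library as too shallow, and 1405 and 1122 infarction neutrophils. The 2 infarction libraries thus differed in fibroblast depth as well as in member level. At equal depth the control library still held the larger share.

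Among infarction fibroblasts, the cells with at least 3 members stood at 2731 CPM over all members in the control and 2606 CPM in the deletion-labelled library. The cells with fewer stood at 706 and 509 CPM. These levels come from the same counts that sorted the cells, and the cut itself brings the levels above it together. They are given as a description, and level is not weighed against share.

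**Figure D2:**
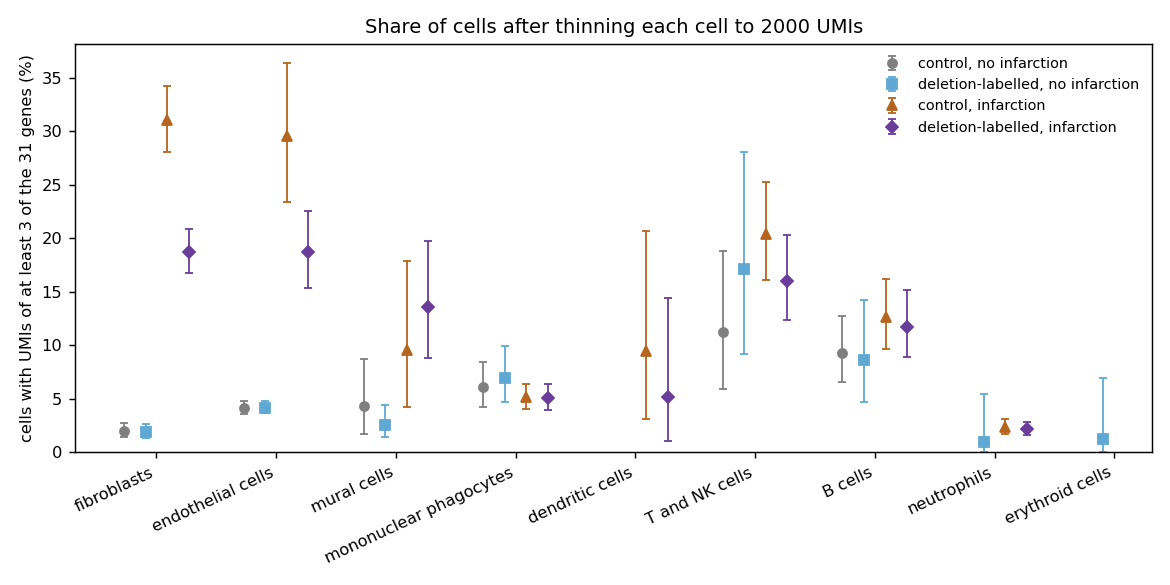
Share of cells (vertical axis, percent) in which at least 3 of the 31 genes were found after thinning each cell to 2000 UMIs, by cell class and library, with exact Clopper-Pearson intervals. Infarction fibroblasts stand at 31.1% and 18.7%, and neutrophils at 2.14 and 2.33% after infarction.

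In endothelial cells 4.15 and 4.17% of thinned cells held at least 3 members without infarction and 29.6 and 18.8% after it, at median depths of 7783 and 4835 UMIs after infarction. The control library had the higher share but the lower CPM, so no order between the infarction libraries is read from it. Phagocyte shares were 6.10, 6.98, 5.13 and 5.05%, each above the 2.33 and 2.14% of infarction neutrophils. In cluster 4, which this class leaves out, the shares after infarction were 17.5 and 16.2%.

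In control fibroblasts the DNA replication genes were higher after infarction almost without exception. The summed level was 4.93-fold that of the uninjured library, a log2 ratio of 2.30 (2.26 to 2.34). Of the 31 members, 29 were higher by at least 1.5-fold and 0 were lower, against 25.7% of 14821 genes higher and 40.0% lower over all genes with at least 10 UMIs. The median log2 ratio was 3.64 over the members and -0.29 over all genes. With TMM scaling all genes shifted up by 0.27, which made their split 32.3% higher and 31.9% lower, all 31 members were then higher, and no member turned direction.

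In the deletion-labelled pair of libraries the pattern was the same in direction and smaller in size. The sum was 3.72-fold higher after infarction (log2 ratio 1.90, 1.86 to 1.93). Again 29 of 31 members were higher by at least 1.5-fold and 0 were lower, against 21.0% of all genes higher and 33.0% lower, with medians of 2.38 for the members and -0.21 for all 15144 genes. TMM scaling shifted all genes up by 0.20 here, to 26.4% higher and 25.5% lower, and turned no member.

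The fibroblasts compared across infarction were not of the same clusters. In the uninjured libraries they came mostly from cluster 2 (led by Smoc2, Ogn and Dcn; 1541 and 1596 cells) and cluster 13 (Sema3c, Pi16, Cilp; 332 and 375 cells). After infarction they came mostly from cluster 7 (Timp1, Cthrc1, Tnc, Postn; 881 and 935 cells). Over the members, cluster 7 held 1530 and 1261 CPM after infarction. The 386 cells of cluster 2 that the deletion-labelled infarction library still held stood at 300 CPM, beside 306 and 292 CPM for this cluster in the uninjured libraries. Cluster 13 stood at 345 CPM in 107 cells of that library, beside 311 and 297 CPM without infarction. The high member level after infarction was thus in cluster 7. In cluster 2 the thinned share of cells with at least 3 members was 1.82% after infarction, beside 1.82 and 1.89% without it. Single members still differed there: in the deletion-labelled pair 9 of 30 members were higher in cluster 2 and 2 lower, against 8.06% of 13675 genes higher and 15.9% lower, with medians of 0.26 and -0.14. In cluster 13, 5 of 23 members were higher and 2 lower, against 5.91% of 12057 genes higher and 17.5% lower, with medians of 0.23 and -0.13.

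Licensing and helicase genes were all higher after infarction, 11 of 11 by at least 1.5-fold in both genotypes, with median log2 ratios of 3.69 in the control and 2.38 in the deletion-labelled pair. In the order control and deletion-labelled without infarction, then control and deletion-labelled after it, their summed level was 70.0, 61.7, 431 and 293 CPM. Mcm3, a subunit of the ring, stood at 9.39, 9.40, 61.7 and 42.3 CPM in this order, log2 ratios of 2.72 (2.50 to 2.94) and 2.17 (1.98 to 2.37). Mcm5 stood at 2.36, 1.90, 45.7 and 32.1 CPM. The uninjured pairs of both genes nearly coincide, and the infarction pairs do not overlap with them.

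The 6 ring subunits differed in how much RNA the uninjured fibroblasts already held. Mcm4 stood at 18.8, 16.3, 57.4 and 39.4 CPM. Mcm2 stood at 2.11, 2.52, 27.3 and 21.2 CPM. The ratio across infarction was accordingly smaller for Mcm4 than for Mcm2 in both genotypes.

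The loading factors Cdc6 and Cdt1 were below 2 CPM in uninjured fibroblasts. Cdc6 stood at 0.885, 1.68, 12.2 and 7.62 CPM, and Cdt1 at 0.786, 1.06, 17.4 and 11.6 CPM. Their inhibitor Gmnn stood at 2.16, 1.75, 50.4 and 32.9 CPM. The helicase partners Cdc45 and Gins2 were high in the same libraries, Cdc45 at 1.13, 1.75, 14.3 and 9.15 CPM and Gins2 at 2.85, 2.89, 38.7 and 27.8 CPM. In each of these 5 genes the order of the infarction libraries was the same, control above deletion-labelled.

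Among the polymerase and clamp genes 6 of 7 were higher in each genotype, with medians of 1.79 and 1.32 and summed levels of 95.4, 97.2, 403 and 306 CPM. Pclaf, a small protein that binds the Pcna clamp, had the highest log2 ratio of all members with more than 1 UMI in every library, at 0.639, 0.622, 135 and 94.1 CPM. That was 211-fold in the control (log2 ratio 7.72, 6.95 to 8.63) and 151-fold in the deletion-labelled pair (7.24, 6.56 to 8.02). Pclaf (ENSMUSG00000040204; chromosome 9, 65890237 to 65903266, plus strand) overlaps Trip4 on the opposite strand, and the sources used here do not say whether counting used the strand. Mcm7, Cdc45, Gins2, Rfc2 and Fen1 also overlap genes on the opposite strand, and Chaf1b overlaps Gm49617 on the same strand. Pcna itself was already present in uninjured fibroblasts, at 39.9, 41.8, 112 and 91.5 CPM.

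Rpa2, part of the complex that coats single-stranded DNA, stood at 10.0, 10.7, 27.4 and 22.7 CPM, log2 ratios of 1.45 (1.23 to 1.68) and 1.08 (0.89 to 1.28). Pola1, the catalytic subunit of the priming polymerase, was the member of this group that did not reach 1.5-fold. It stood at 17.5, 17.1, 24.0 and 19.7 CPM, log2 ratios of 0.45 (0.27 to 0.64) and 0.20 (0.03 to 0.38). The primase subunit Prim1, which works in the same complex, stood at 6.04, 4.53, 22.1 and 15.3 CPM.

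The 3 nucleotide genes were all higher in both genotypes, with summed levels of 38.1, 35.6, 250 and 180 CPM. Tyms, which makes thymidylate, stood at 12.6, 13.2, 108 and 83.4 CPM, log2 ratios of 3.10 (2.91 to 3.29) and 2.66 (2.50 to 2.82). The subunits of ribonucleotide reductase differed from each other: Rrm1, the large subunit, stood at 22.95, 20.1, 83.0 and 61.5 CPM. Rrm2, the small subunit, whose protein is known to be limited to S phase, stood at 2.60, 2.23, 59.8 and 34.6 CPM. Rrm2 was thus the subunit with the larger ratio across infarction.

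All 5 repair and checkpoint genes were higher in both genotypes, with medians of 4.54 and 3.94 and summed levels of 29.7, 33.4, 138 and 99.9 CPM. Dtl, a receptor of the ubiquitin ligase that destroys Cdt1 at the clamp, was counted with 1, 18, 610 and 505 UMIs, which is 0.0491 CPM in the first and 14.5 CPM in the last library. The control log2 ratio of 7.08, with the 1 UMI raised to 3, goes with an exact interval of 6.19 to 13.97, which reaches above that of Pclaf, so the order of the 2 genes in the control is not settled. The deletion-labelled ratio, over 18 UMIs, was 4.46 (3.79 to 5.23). Exo1, a nuclease of mismatch repair, stood at 0.0491, 0.146, 8.39 and 4.37 CPM, which is 1, 4, 256 and 152 UMIs. Its log2 ratios were 5.83 (4.92 to 12.73) and 4.90 (3.52 to 6.80).

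Clspn, the adaptor of the checkpoint kinase, stood at 1.97, 1.94, 32.6 and 23.3 CPM, and the uracil glycosylase Ung at 0.688, 0.731, 16.0 and 11.2 CPM. Tipin, which steadies the stalled fork, had the smallest ratio of the group. It stood at 27.0, 29.9, 61.3 and 46.5 CPM, log2 ratios of 1.18 (1.05 to 1.32) and 0.64 (0.51 to 0.76).

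Of the chromatin genes 4 of 5 were higher in each genotype, and their summed levels were 74.3, 65.3, 293 and 213 CPM. Uhrf1, which guides the methylation of new DNA, stood at 0.541, 0.695, 40.9 and 29.7 CPM, log2 ratios of 6.24 (5.40 to 7.25) and 5.42 (4.77 to 6.16). Nasp, a histone chaperone, stood at 31.7, 25.1, 135 and 91.5 CPM, log2 ratios of 2.09 (1.97 to 2.21) and 1.87 (1.75 to 1.99). The exception was Slbp, which binds the stem loop of histone mRNA, at 39.5, 36.8, 52.9 and 47.1 CPM and log2 ratios of 0.42 (0.30 to 0.55) and 0.36 (0.24 to 0.47). Slbp and Pola1 were the members that stayed under 1.5-fold in both genotypes.

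**Figure D3:**
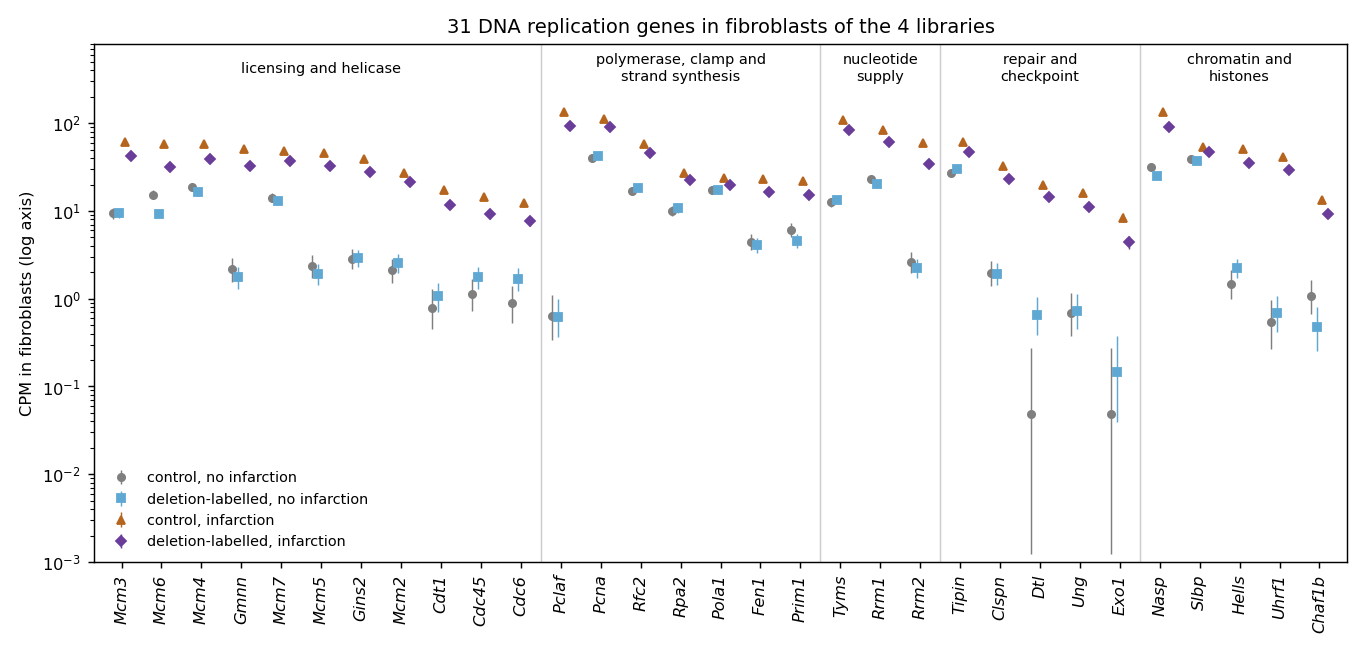
Level of each of the 31 genes in fibroblasts (vertical axis, CPM, log axis), grouped by role, 1 point per library with its exact Poisson interval. The infarction libraries lie above the libraries without infarction for every gene, from 0.639 against 135 CPM for Pclaf in the control to 39.5 against 52.9 CPM for Slbp.

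The remaining genes of the pathway were taken from lists that share no gene with the 31. Of 46 other replication genes, 34 were higher by at least 1.5-fold after infarction in control fibroblasts and 0 were lower (median log2 ratio 2.05). The deletion-labelled pair had 30 higher and 0 lower (median 1.32). The ends of this list were Tk1, thymidine kinase, at 0.147 and 43.3 CPM in the control libraries (log2 ratio 8.20), Mcm10 (5.44), and the origin subunits Orc3 and Orc4, both at -0.42.

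Of 25 regulators of E2F and the step from G1 to S, 16 were higher and 4 lower in the control (median 1.005). Ccna2, cyclin A, stood at 0.147 and 61.2 CPM (log2 ratio 8.70). E2f8, an E2F repressor, was found with 0 and 205 UMIs, a log2 ratio of at least 5.51 against the floor of 3 UMIs. Rb1 and Rbl2, which hold E2F in check, lay at the other end at -2.06 and -2.19.

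Of 13 CDK inhibitors and quiescence genes, 2 were higher and 9 lower (median -1.005). Gas1, known from growth arrest, stood at 674 and 78.1 CPM (-3.11) and Cdkn1c, the inhibitor p57, at 80.4 and 5.38 CPM (-3.90), while Cdkn2a (5.60) and Cdkn2b (1.80) were higher. All 30 mitotic genes were higher, with a median of 6.21, and so were 15 of 20 replication-dependent histone genes, with a median of 2.98 and 4 lower. Histone transcripts of this kind mostly lack a poly(A) tail, which 3′ libraries prime on, so their counts need not follow their RNA.

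The members were also set against each other in single cells. In infarction fibroblasts thinned to 2000 UMIs, each of the 31 members was found more often in cells with at least 3 of the other 30 than in cells with 0 of them, in both libraries. In the control library the share of cells with a given member ranged from 4.33 to 33.7% in the first kind of cell and from 0 to 7.32% in the second. In the deletion-labelled library these ranges were 3.04 to 34.0% and 0 to 7.99%. The cells of both kinds share a library, and the kinds differ in unthinned depth. No such count over all genes stands beside that of the members, so nothing particular to the members is read from it.

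Cells scored as rich in the members and cells scored as rich in mitotic transcripts overlapped only in part. In cells thinned to 2000 UMIs either score can be missed by sampling, so no separate kinds of cell are read from this. A list of 30 mitotic genes was used to split the thinned infarction fibroblasts. Of control cells with 0 mitotic genes found, 11.5% (8.73 to 14.8%) held at least 3 members. Of those with 3 or more mitotic genes, 59.9% did (54.0 to 65.7%). The deletion-labelled library gave 6.24% and 56.1%.

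In the control library 108 cells held at least 3 members without 3 mitotic genes, 113 cells held the mitotic genes without the members, 169 held both and 502 neither. The deletion-labelled library held 125, 108, 138 and 1033 such cells. Cells with the mitotic genes alone still held 1.33 and 1.24 member UMIs on average after thinning, control first, and cells with neither 0.711 and 0.623. Cells with 0 mitotic genes numbered 451 and 977, and they were also shallower before thinning, at median UMIs of 27918 and 16349, against 39991 and 34631 in cells with 3 or more.

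The members differed in how closely they followed the mitotic genes. Pclaf stood at 3.10 UMIs per 100 thinned control cells with 0 mitotic genes and at 50.4 in cells with 3 or more, and at 1.54 and 48.0 in the deletion-labelled library. Rrm1 stood at 4.43 and 29.1 in the control and at 4.30 and 28.0 in the deletion-labelled library. Slbp stood at 7.54 and 13.1, and at 7.57 and 10.6. Pclaf was thus concentrated in cells with mitotic transcripts and Slbp much less so.

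The licensing factor Cdt1, which is destroyed once S phase begins, stood at 2.88 and 3.19 UMIs per 100 control cells with 0 and with 3 or more mitotic genes. Dtl, part of the ligase that destroys Cdt1, stood at 2.66 and 1.06, the latter from 3 UMIs. In the deletion-labelled library both genes stood higher in the mitotic cells, Cdt1 at 0.819 and 3.66 and Dtl at 1.02 and 6.10. In the control library the counting intervals of the 2 kinds of cell overlapped for both genes, 1.37 to 4.65 and 0.219 to 3.11 for Dtl, so no order is read there.

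**Figure D4:**
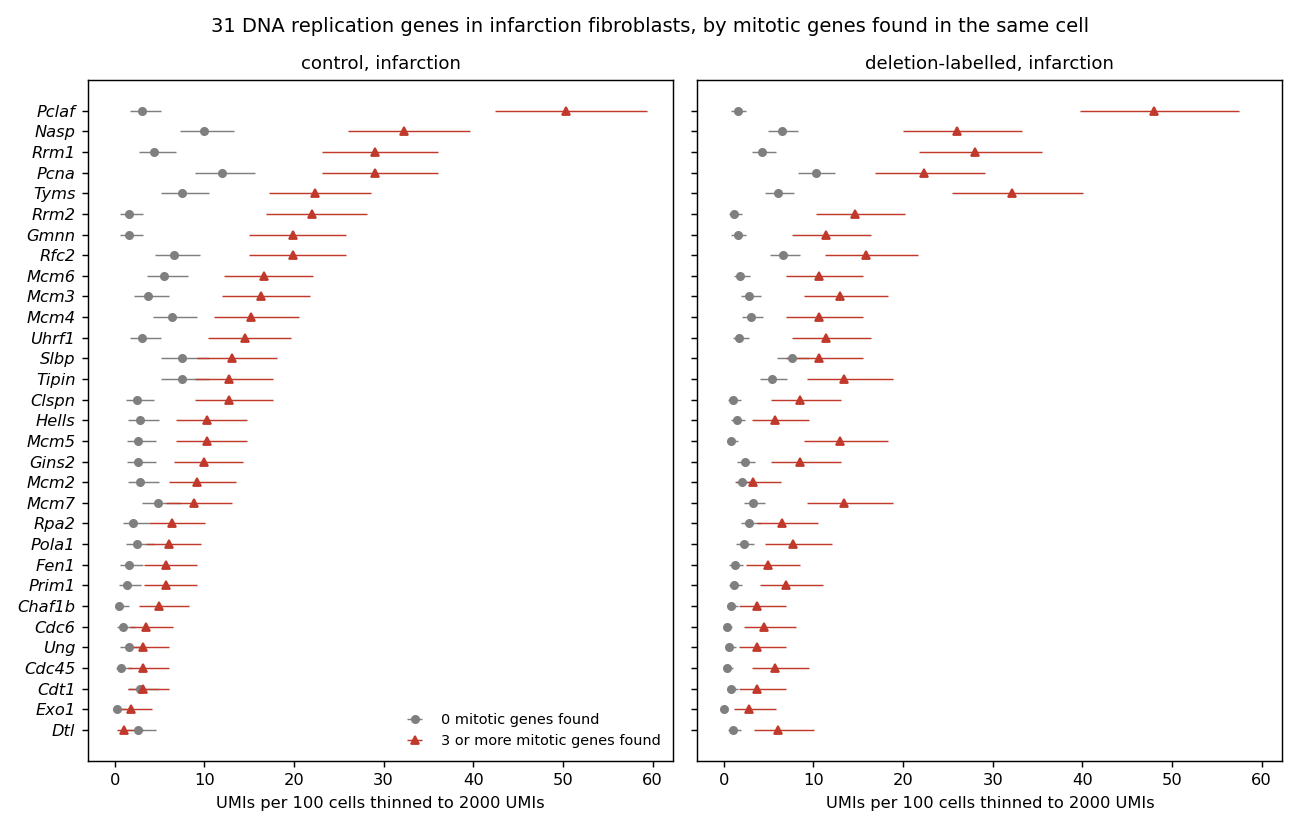
UMIs of each of the 31 genes per 100 infarction fibroblasts thinned to 2000 UMIs (horizontal axis), in cells with 0 and in cells with 3 or more of 30 mitotic genes found, control library and deletion-labelled library in separate panels, with exact Poisson intervals. Pclaf shows the widest gap, 3.10 against 50.4 in the control, and Slbp a small gap, 7.54 against 13.1.

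Without infarction the genotypes differed little in fibroblasts. The summed ratio of the deletion-labelled to the control library was -0.07 on the log2 scale (-0.12 to -0.02). Of 30 members with at least 10 UMIs in either library, 4 were higher by at least 1.5-fold (Dtl, Cdc6, Cdc45 and Hells) and 2 lower (Mcm6 and Chaf1b), against 9.28% of 14292 genes higher and 7.22% lower. The medians were -0.01 for the members and -0.02 for all genes. Exo1, with 4 UMIs against 1, had too few to be counted.

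Most of these members rest on few UMIs. Cdc6 had 46 against 18 UMIs (log2 ratio 0.93, 0.11 to 1.80), Cdc45 48 against 23 (0.63, -0.11 to 1.42) and Hells, a chromatin remodeler, 61 against 30 (0.60, -0.06 to 1.28). Mcm6 rested on more, 255 against 313 UMIs, at 9.32 CPM in the deletion-labelled and 15.4 CPM in the control library (-0.72, -0.97 to -0.48). Prim1 (-0.42, -0.79 to -0.04), Nasp (-0.34, -0.50 to -0.18) and Mcm5 (-0.31, -0.91 to 0.29) followed at the lower end and Mcm2 (0.26, -0.31 to 0.84) at the upper end.

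In the best covered member of each role group the ratio was close to 0. Pcna stood at 0.07 (-0.06 to 0.20), Tipin at 0.15 (-0.01 to 0.31), Slbp at -0.10 (-0.24 to 0.03), Rrm1 at -0.19 (-0.37 to -0.01) and Mcm4 at -0.20 (-0.40 to 0.00). Of the other replication genes 2 of 41 were higher and 1 lower (median -0.06).

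After infarction the deletion-labelled fibroblasts had a lower level of every member than the control fibroblasts. The summed level was 1.39-fold lower, a log2 ratio of -0.48 (-0.50 to -0.46). All 31 members had a ratio below 0, as had 44.1% of 14794 genes. Of the 31, 7 were lower by at least 1.5-fold and 0 higher, against 5.06% of all genes lower and 13.2% higher. The median was -0.51 for the members and 0.05 for all genes. With TMM scaling 11 members passed 1.5-fold, with the median of ratios 13, and at a fold of 2 there were 0.

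The 7 members were Exo1, Mcm6, Rrm2, Cdc6, Cdc45, Gmnn and Cdt1, of which 5 belong to licensing and the helicase. Exo1 stood at 4.37 CPM in the deletion-labelled and 8.39 CPM in the control library, a log2 ratio of -0.94 (-1.24 to -0.65). Mcm6 stood at 31.7 against 57.8 CPM (-0.87, -0.98 to -0.76), Rrm2 at 34.6 against 59.8 CPM (-0.79, -0.89 to -0.68) and Cdc6 at 7.62 against 12.2 CPM (-0.68, -0.91 to -0.45). Mcm6 was therefore lower by at least 1.5-fold in the deletion-labelled library both without and after infarction.

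At the other end stood the members with the smallest differences. Slbp had a ratio of -0.17 (-0.27 to -0.07), Rpa2 of -0.27 (-0.41 to -0.13), Pola1 of -0.28 (-0.43 to -0.13) and Pcna of -0.30 (-0.37 to -0.23). Between these ends lay Tyms (-0.37), Tipin (-0.40), Pclaf (-0.52), Mcm3 (-0.55) and Nasp (-0.56). By role, 5 of 11 licensing and helicase genes, 0 of 7 polymerase and clamp genes, 1 of 3 nucleotide genes, 1 of 5 repair genes and 0 of 5 chromatin genes were lower by at least 1.5-fold. Over all genes this share was 5.06%. The cut fell among close values: Cdt1 (-0.59) and Gmnn (-0.62) passed it, while Nasp (-0.56), Hells (-0.55) and Chaf1b (-0.54) did not. No order of the role groups is therefore read from these counts.

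The composition of the class differed between these 2 libraries. Cluster 7 made up 881 of 901 fibroblasts in the control and 935 of 1428 in the deletion-labelled library. Within cluster 7 the summed levels were 1530 CPM (1516 to 1544) and 1261 CPM (1248 to 1274), a log2 ratio of -0.28 (-0.30 to -0.26). All 31 members were again below 0, as were 46.4% of 14485 genes, and the medians were -0.28 for the members and 0.02 for all genes. There 2 members were lower by at least 1.5-fold, Exo1 (-0.69, -0.99 to -0.39) and Mcm6 (-0.64, -0.75 to -0.52), against 4.25% of all genes.

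Rrm2 stood at -0.53 and Cdc6 at -0.46 within the cluster, and the smallest differences were those of Slbp (-0.08), Mcm2 and Pola1 (both -0.14). The thinned shares of cells with at least 3 members were 31.8 and 27.5% in cluster 7, at median depths of 32980 and 29090 UMIs per cell. The difference over all fibroblasts was thus 1.39-fold in level, and a smaller one was left inside the cluster that held the members.

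Markers of other classes also differed between the infarction fibroblasts. Mural markers, 9 of 9 found, summed to 760 CPM in the control and 594 CPM in the deletion-labelled library, neutrophil markers, 9 of 9 found, to 621 and 435 CPM, and dendritic markers to 193 and 130 CPM with Clec9a at 0 in both. Other lists lay the other way: erythroid markers, 5 of 5 found, summed to 0.820 and 216 CPM, cardiomyocyte markers, 8 of 8 found, to 4.23 and 10.6 CPM and B cell markers, 7 of 7 found, to 195 and 261 CPM. The part of these differences in the member ratios was not tested. Fibroblast markers summed to 14632 CPM in the control and 21641 CPM in the deletion-labelled library.

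The other lists, taken over the whole fibroblast class and not within cluster 7, lay mostly on the same side after infarction, deletion-labelled against control. Of 46 other replication genes 7 were lower and 0 higher (median -0.39), from Pole (-0.86) and Brip1 (-0.74) to Orc3 (0.21). Of 30 mitotic genes 12 were lower and 0 higher (median -0.56), with Aurkb (-0.89) and Aurka (-0.85) lowest. Of 20 histone genes 12 were lower and 1 higher (median -0.76).

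Of the E2F and G1 to S regulators 3 of 25 were lower, E2f8 (-0.67) and Ccna2 (-0.64) among them. Of the quiescence list 3 of 13 were higher and 0 lower (median 0.22), beside 13.2% of all genes higher and 5.06% lower (median 0.05). Gas1 stood at 210 CPM against 78.1 CPM (1.43) and Cdkn1c at 21.0 against 5.38 CPM (1.97). These 2 genes were also the lowest of their list across infarction in the control library. The deletion-labelled class held more cells outside the infarction cluster, and the part of this in the 2 ratios was not tested.

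**Figure D5:**
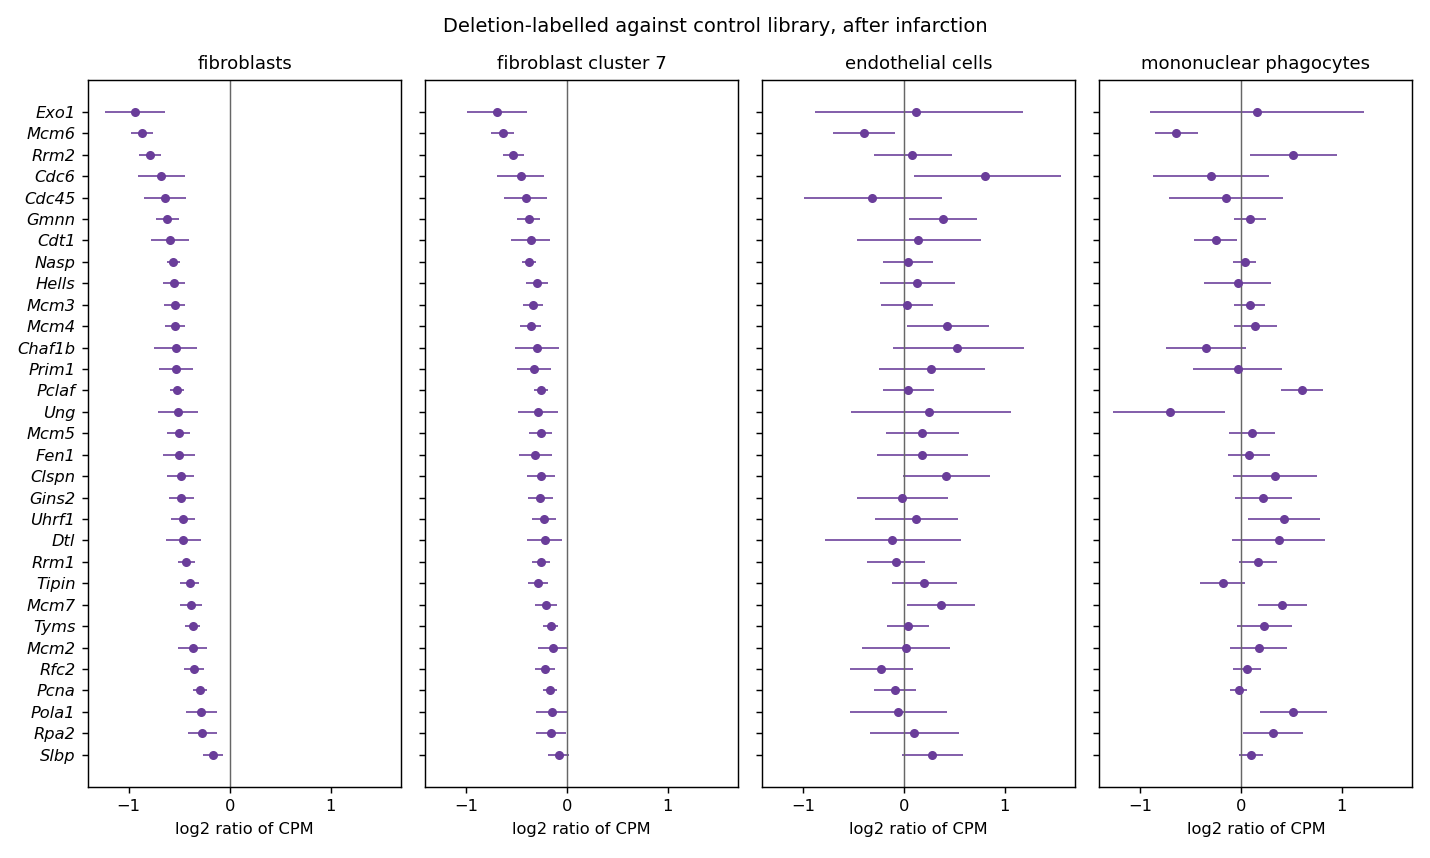
Log2 ratio of CPM, deletion-labelled against control library after infarction (horizontal axis), for the 31 genes in fibroblasts, in fibroblast cluster 7 alone, in endothelial cells and in mononuclear phagocytes, with exact intervals. All 31 genes lie below 0 in fibroblasts and in cluster 7, while endothelial cells and phagocytes have medians of 0.12 and 0.10.

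Endothelial cells also held much more RNA of the members after infarction. In the control the sum was 3.12-fold higher (log2 ratio 1.64, 1.58 to 1.70), and 30 of 31 members were higher by at least 1.5-fold and 0 lower, against 28.4% of 13505 genes higher and 30.4% lower, with medians of 2.12 and -0.03. In the deletion-labelled pair it was 3.28-fold higher (1.71, 1.67 to 1.76), with 29 of 31 members higher and 0 lower, against 23.7% of 14277 genes higher and 21.3% lower, and medians of 2.10 and -0.00.

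Few endothelial cells were recovered after infarction, 240 and 541 against 4480 and 5576 without it. Cluster 20, led by Pgf, Apln and Plvap, made up 205 and 251 of them, and it stood at 1370 and 1800 CPM over the members. In the deletion-labelled infarction library the endothelial clusters 1 and 3, which hold most uninjured endothelial cells, stood at 477 and 563 CPM, beside 394 and 407 CPM in the same genotype without infarction. The high level was thus again in a cluster seen mainly after infarction. Neutrophil markers in the endothelial class summed to 28.6, 48.4, 877 and 637 CPM over the 4 libraries, 9 of 9 found, and their part in the ratios was not tested. Without doublet removal or at a mitochondrial limit of 10%, cluster 20 cells received no class name, and the summed ratio of the deletion-labelled pair was 0.42 and 0.56.

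Pclaf and Uhrf1 were among the 4 highest ratios here too. Pclaf stood at 2.34, 3.23, 80.9 and 83.5 CPM in endothelial cells, log2 ratios of 5.11 (4.62 to 5.64) and 4.69 (4.36 to 5.04). Uhrf1 stood at 1.11, 1.58, 30.98 and 33.7 CPM (4.80, 4.07 to 5.61, and 4.41, 3.93 to 4.93). Tyms stood at 15.0, 15.2, 117 and 120 CPM (2.95, 2.71 to 3.20, and 2.98, 2.79 to 3.17). For each of these 3 genes both infarction libraries lie far above both uninjured ones.

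In the control pair Dtl (5.77, 4.28 to 7.73, from 4 UMIs) and Cdc45 (4.35, 3.34 to 5.48) were also among the highest, and in the deletion-labelled pair Rrm2 (3.75, 3.35 to 4.16) and Gins2 (3.54, 3.09 to 4.003). Slbp was the lowest in both, at 49.0, 47.5, 53.4 and 64.8 CPM, log2 ratios of 0.13 (-0.14 to 0.39) and 0.45 (0.26 to 0.64). Mcm4 (0.72), Prim1 (0.95) and Nasp (0.99) followed in the control, and Rfc2 (0.52), Pcna (0.94) and Tipin (1.08) in the deletion-labelled pair. Mcm3 lay between, at 23.9, 22.4, 79.4 and 80.9 CPM. By role, the summed endothelial levels were 117, 110, 387 and 420 CPM for licensing and the helicase, and 123, 139, 359 and 354 CPM for polymerase and clamp. Nucleotide genes summed to 45.5, 39.4, 216 and 217 CPM, repair genes to 27.7, 34.0, 102 and 119 CPM and chromatin genes to 97.5, 91.1, 218 and 243 CPM. Every role group was thus higher after infarction in both genotypes. Other replication genes were higher for 27 of 42 and 35 of 46, and all 30 mitotic genes were higher in both genotypes.

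Between the genotypes the endothelial class differed little in its summed level. Without infarction the summed ratio was 0.01 (-0.03 to 0.05), and 4 of 31 members were higher and 0 lower, against 9.95% of 14325 genes higher and 8.75% lower. The 4 were Dtl, with 36 against 4 UMIs (2.40, 0.92 to 4.35), Cdc6 (0.93, 0.46 to 1.42), Cdc45 (0.73, -0.30 to 1.87) and Exo1, with 21 against 4 UMIs (1.62, 0.06 to 3.63). Mcm6 (-0.33, -0.51 to -0.15) and Rrm1 (-0.37, -0.54 to -0.19) were lowest among those with at least 30 UMIs, before Mcm4 and Pola1 (both -0.30). Pcna stood at 0.14 (0.03 to 0.26) and Slbp at -0.04 (-0.17 to 0.08).

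After infarction the summed ratio was 0.08 (0.02 to 0.14), and within cluster 20 it was 0.39 (0.33 to 0.46). Of 31 members 1 was higher, Cdc6 at 15.6 against 8.91 CPM (0.81, 0.10 to 1.56), and 0 were lower, against 14.7% of 11518 genes higher and 4.60% lower, with medians of 0.12 and 0.09. Chaf1b (0.53), Mcm4 (0.43) and Clspn (0.42) followed. Mcm6 was again the lowest, at 47.4 against 62.3 CPM (-0.40, -0.70 to -0.09), before Cdc45 (-0.31), Rfc2 (-0.22) and Dtl (-0.12). With TMM scaling Mcm2, Mcm3, Pclaf, Tyms and Nasp turned below 0.

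In CPM and without cluster 4, the summed member level of mononuclear phagocytes was close to unchanged across infarction in both genotypes. In the control the summed log2 ratio was 0.06 (-0.01 to 0.12), with 9 of 31 members higher and 5 lower, against 17.8% of 12902 genes higher and 41.3% lower, and medians of 0.09 and -0.37. In the deletion-labelled pair it was -0.02 (-0.09 to 0.04), with 4 higher and 7 lower, against 17.4% of 12885 genes higher and 35.3% lower, and medians of -0.14 and -0.23. TMM scaling shifted all genes up by 0.36 and 0.24, to splits of 28.2% higher and 29.9% lower and of 25.2% and 27.8%. With that scaling 14 members were higher and 3 lower in the control, and 6 were higher and 4 lower in the other pair. Mcm3, Mcm4, Mcm6, Gins2, Tyms, Clspn and Tipin turned above 0 in the control, and Mcm5, Rfc2, Ung, Clspn, Chaf1b and Slbp in the deletion-labelled pair.

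The phagocytes of the uninjured hearts were mostly cluster 11 (Mgl2, Cd163, Lyve1, Folr2; 523 and 345 cells). Those of the infarcted hearts were mostly cluster 5 (Ms4a4c, Ccr2, Plac8; 1147 and 1027 cells). Over the members, cluster 11 stood at 462 and 526 CPM and cluster 5 at 417 and 427 CPM, so the ratios compare different cells at a similar level. Cluster 4 (Spp1, Pf4, Gpnmb, Trem2; 1302 and 1002 infarction cells) held 1036 and 981 CPM but was left unnamed, because its leading genes include platelet markers. When it was counted among the phagocytes, the summed ratio across infarction was 0.72 in the control and 0.51 in the deletion-labelled pair.

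Markers of other classes in the phagocytes also moved with infarction. In the order of the libraries used above, endothelial markers, 9 of 9 found, summed to 971, 1243, 84.7 and 91.5 CPM, and cardiomyocyte markers, 8 of 8 found, to 207, 197, 3.27 and 6.21 CPM. Neutrophil markers went the other way, at 33.7, 62.3, 753 and 726 CPM, with Retnlg at 0 in the uninjured control. Their part in the member ratios was not tested.

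By role, licensing and helicase genes summed to 134, 168, 145 and 147 CPM in phagocytes, polymerase and clamp genes to 164, 190, 175 and 186 CPM and chromatin genes to 107, 96.7, 110 and 115 CPM. None of these 3 groups had both infarction libraries on 1 side of both uninjured libraries except the chromatin genes, by a small margin. Within the groups single genes differed more, above all the priming polymerase. Pola1 was at 26.6, 22.6, 5.21 and 7.45 CPM, lower after infarction in both genotypes with log2 ratios of -2.35 (-2.71 to -1.99) and -1.60 (-1.95 to -1.24). Its partner Prim1 was lower as well, at 7.51, 8.14, 3.61 and 3.53 CPM (-1.06, -1.62 to -0.47, and -1.20, -1.77 to -0.62). Both directions held with TMM scaling. In fibroblasts neither gene was lower after infarction.

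Rpa2 (-1.06, -1.47 to -0.64) and Mcm7 (-0.63, -1.01 to -0.24) followed in the control phagocytes, and Mcm6 (-1.08, -1.38 to -0.77) and Mcm7 (-0.77, -1.09 to -0.44) in the deletion-labelled ones. At the upper end Cdt1 was higher in both, at 3.25, 6.31, 16.2 and 13.7 CPM (2.32, 1.60 to 3.14, and 1.12, 0.58 to 1.70). Ung in the control had 82 UMIs against 2 (2.36, with 2 raised to 3; exact interval 1.04 to 6.01), and Cdc6 (1.56) and Dtl (1.03) rested on 4 and 7 UMIs.

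In the deletion-labelled pair Pclaf (1.34, 0.86 to 1.87), Nasp (0.92, 0.66 to 1.18) and Tyms (0.68, 0.13 to 1.28) were at the upper end. Pcna, the clamp, lay closer together, at 70.4, 86.5, 98.5 and 97.1 CPM. In the control the best covered repair, ring, histone and nucleotide genes were Tipin (-0.10), Mcm3 (-0.23), Slbp (-0.37) and Rrm1 (-0.59). Of the other replication genes 3 of 46 were higher and 16 lower in the control, beside 41.3% of all genes lower, and 1 of 44 was higher and 16 lower in the deletion-labelled pair, beside 35.3% lower.

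Between the genotypes, phagocytes without infarction had 7 of 30 members higher and 0 lower, against 10.2% of 11793 genes higher and 8.79% lower, and medians of 0.34 and -0.03. Most of the 7 had under 30 UMIs in both libraries. These were Ung (1.88, 11 against 2 UMIs, with 2 raised to 3), Dtl (1.66, 22 against 7) and Cdc6 (1.59, 12 against 4). Cdc45 (0.81, 14 against 8) and Uhrf1 (0.78, 24 against 14) were also of this kind. Better covered, Hells stood at 9.56 against 4.47 CPM (1.10, 0.34 to 1.90) and Cdt1 at 6.31 against 3.25 CPM (0.96, 0.04 to 1.93). Fen1 (0.58) and Mcm7 (0.54) did not reach 1.5-fold. Nasp was lowest at 27.5 against 40.4 CPM (-0.56, -0.88 to -0.23), after Tyms (-0.48), Rrm1 (-0.45) and Pola1 (-0.24). After infarction 1 member was higher, Pclaf at 19.1 against 12.6 CPM (0.60, 0.39 to 0.81). Pola1 and Rrm2 (both 0.51) and Uhrf1 (0.43) followed below 1.5-fold. Mcm6 at 12.3 against 19.2 CPM (-0.64, -0.85 to -0.43) and Ung (-0.70, -1.26 to -0.16) were lower, against 7.92% of 12804 genes higher and 3.82% lower, and medians of 0.10 and 0.08. With TMM scaling 0 members were higher, and Rfc2 and Nasp turned below 0. When cluster 4 was counted among the phagocytes, the summed ratio after infarction was -0.07 in place of 0.06.

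Mcm6 was the member that lay below 0 between the genotypes in the most classes after infarction. Its ratio was below 0 in 6 of the 7 classes in which it had at least 10 UMIs, with mural cells the exception at 0.60, and it ranged down to -0.98 in neutrophils. Without infarction it was below 0 in 4 of 6 classes, Nasp and Slbp in 6 of 6 and Pola1 in 5 of 5. Other members lay the other way there. Cdt1 was above 0 in 5 of 5 classes, and Cdc6, Cdc45, Gins2, Dtl and Uhrf1 in 3 of 3, Dtl with all 3 intervals above 0. After infarction Mcm3, Mcm7, Pclaf, Nasp and Slbp were above 0 in 6 of 8 classes. The counting interval of Mcm6 lay wholly below 0 in 4 classes after infarction and in 2 without it. Without infarction that of Nasp did so in 3 classes and that of Slbp in 0, with Slbp ratios of -0.22 to -0.04. These members were picked from the 31 by these values, and no share over all genes stands beside the counts of classes. These classes come from the same pair of libraries each time and are not replicates of the genotype.

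Across 30 class sums of 9 classes, each with at least 50 cells, Mcm5 (0.94), Mcm2 (0.93), Hells (0.92), Nasp (0.91) and Mcm3 (0.90) had the highest Pearson r between their log2 level and that of the other 30 members together. Slbp had the lowest at 0.48, before Cdc45 (0.63), Cdc6 (0.64), Pola1 (0.65) and Tyms (0.67). The sums share 4 libraries and differ in depth, so these r are a description. Among 10689 genes outside the cell cycle lists, those most like the summed members were Naa10 and Selenoh (both r = 0.93), Rangap1 and Smc2 (both 0.92), Stmn1 and Set (both 0.91), Knstrn and Cdca8 (both 0.90), Tacc3 (0.89) and Kif22 (0.88).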

How the data were processed

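Whole-number UMI counts of each gene in each cell were deposited for 4 libraries of sorted heart cells, as made by the authors with Cell Ranger 5.0.1 on mm10, per the submitters' processing notes, with barcodes already selected. The values are whole numbers and were not normalized.

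Barcodes under 500 UMIs or 200 genes, or above 20% mitochondrial UMIs, were removed (205 to 544 per library). Possible doublets, 655 to 1032 per library, were removed by a score from simulated pairs at 0.8% per 1000 barcodes. The 4 libraries were clustered together (2000 variable genes without the listed cell cycle genes, 30 components, 20 neighbours, Leiden resolution 1). Of 38 clusters 31 were named in 12 classes and 7 stayed unnamed. A cluster took the class with the highest mean difference in marker share, at least 0.1, given at least 3 markers detected in 20% of cells. No name was given where its 10 top genes held more markers of another class, or where a second class passed a difference of 0.4. The first condition was loosened after cluster genes were seen and restored after member levels under both versions were known, and the limit of 0.4 was set after the data were seen.

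UMIs were summed by class and library and divided by 1000000 UMIs (CPM). Ratios are log2 ratios of CPM, with counts under 3 raised to 3 and exact Clopper-Pearson intervals conditional on both counts (95%). CPM carry exact Poisson intervals and shares exact Clopper-Pearson intervals. UMIs come from PCR-amplified libraries, and all intervals cover counting error only. Each group has 1 library, so no test was run. Genes with at least 10 UMIs in either sum were counted as higher or lower past 1.5-fold. Values in full go to the 4 members at each end of the ratios among those with at least 30 UMIs and to the best covered member of each role. From each other list they go to the 2 genes at each end, and like patterns are the 10 genes with the highest r among genes with at least 20 CPM in a sum. The members and lists were chosen with earlier results of these data known. The ratio script was checked on simulated counts. Alternatives were TMM (edgeR 4.0.16, used for factors only), the median of ratios, means per cell, no doublet removal, a mitochondrial limit of 10%, cell cycle genes kept, each library clustered alone, resolution 2, another fold or minimum, other thinning depths and, added after the data were seen, a looser naming rule and cluster 7 alone. Software was Python 3.11.15, R 4.3.3, numpy 2.4.6, scipy 1.17.1, pandas 2.3.3, scikit-learn 1.9.0, igraph 0.11.9, leidenalg 0.10.2 and matplotlib 3.10.9. Gene positions are from GENCODE vM21 on GRCm38, the assembly that mm10 names.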

Additional observations from a re-analysis of the deposited data

Results flagged for a closer look

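The genotype ratio of the summed DNA replication genes lay on opposite sides of 0 in different classes. Without infarction it was -0.069 on the log2 scale in fibroblasts and 0.14 in phagocytes. After infarction it was -0.48 in fibroblasts, 0.062 in phagocytes and 0.079 in endothelial cells. With 1 library per group these differences between classes were not tested. The phagocyte and endothelial values after infarction turn below 0 under other processing, as given below, and the fibroblast value does not.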

How the results depend on the processing

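No paired analysis was possible because every group consists of 1 library. All values here are summed log2 ratios unless named otherwise. In fibroblasts every alternative kept the direction of the 4 ratios. Control infarction against none moved from 2.30 to 2.57 with TMM scaling, 2.62 with the median of ratios and 2.04 with means per cell, and the deletion-labelled pair from 1.90 to 2.09, 2.12 and 1.46, to 1.83 without doublet removal and to 1.86 at 10% mitochondrial UMIs. The genotype ratio without infarction was -0.019 without doublet removal. After infarction it was -0.52, -0.54 and -0.65 under the 3 scalings and -0.28 within cluster 7. The share of infarction fibroblasts with at least 3 members was 16.4 and 8.68% (control, deletion-labelled) when thinned to 1000 UMIs, 50.6 and 30.8% at 4000 UMIs, 45.6 and 30.98% for 2 members and 15.6 and 8.97% for 5 members.

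The phagocyte ratios depend on whether cluster 4 is named. Control infarction against none was 0.41, 0.52 and -0.034 under the 3 scalings, 0.16 without doublet removal, 0.72 with cell cycle genes kept, 1.01 with each library alone, 0.71 at resolution 2 and 0.72 with looser naming. The deletion-labelled pair was 0.22 and 0.29 with TMM and the median of ratios, and 0.091, 0.63, 0.55, 0.56 and 0.51 in the same order of the other settings. The genotype ratio was 0.015 with means per cell without infarction. After infarction it reversed to -0.018 with TMM, -0.032 with the median of ratios, -0.26 with each library alone, -0.085 at resolution 2 and -0.070 with looser naming, and was 0.0012 with cell cycle genes kept.

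In endothelial cells control infarction against none was 1.71 with TMM and 1.56 with looser naming. The deletion-labelled pair was 1.21 with means per cell, 0.42 without doublet removal, 0.56 at 10% mitochondrial UMIs, 1.66 with cell cycle genes kept, 1.31 with each library alone and 1.60 with looser naming. The genotype ratio without infarction was 0.055 with cell cycle genes kept and 0.17 with each library alone. After infarction it was 0.017 with TMM and reversed to -0.42 with means per cell and -0.15 with each library alone. The cause of these differences was not tested. Members with under 30 UMIs, such as Dtl and Exo1 in uninjured fibroblasts, are limited by counting, and 1 library per group limits every ratio.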

Other observations

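Outside the 3 classes compared above, the members were also higher after infarction in mural cells and in T and NK cells. In mural cells the summed log2 ratio across infarction was 0.85 in the control and 1.42 in the deletion-labelled pair, and the genotype ratio after infarction was 0.58 (0.47 to 0.70), the opposite side of 0 from fibroblasts. In T and NK cells the values were 0.47 and 1.11, and 0.34 (0.25 to 0.44) between genotypes after infarction. B cells stood at 0.38 and 0.50, and 0.14 (0.03 to 0.25), but in cluster 8, which held 565 of 576 and 475 of 485 infarction B cells, the values were 0.37 and 0.06, and -0.37 (-0.50 to -0.24). The B cells outside that cluster thus turn the sign between genotypes. Dendritic cells after infarction held 296 CPM in 55 control cells and 596 CPM in 60 deletion-labelled cells, a log2 ratio of 1.01 (0.71 to 1.32). None of these was tested.

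Several clusters held the members at high levels in part of the immune cells. Cluster 22 (led by Ccl5 and Gzma, named T and NK) stood at 958 CPM without infarction in the control and at 1627 and 1783 CPM after infarction. Unnamed cluster 10 (MHC class II genes and Cd209a; 519 and 406 infarction cells) stood at 1248 and 1399 CPM, with 21.3 and 19.6% of thinned cells holding at least 3 members. In unnamed cluster 4 these shares were 17.5 and 16.2%, beside 3.66 and 3.41% in phagocyte cluster 5. Cluster 23, named phagocyte and led by Gm26917, Slc15a3 and Stab1, stood at 2001 and 1764 CPM in 156 and 122 cells with median depths of only 2556 and 2413.5 UMIs. Cluster 18 (Prnd, Apln, Kit; 189 and 288 uninjured cells), left unnamed, stood at 782 and 824 CPM, above the 410 and 413 CPM of the endothelial class in the same libraries.

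The histone gene Hist2h2ac, from the list of replication-dependent histones, was lower in the deletion-labelled libraries in each class compared. Its log2 ratio was -2.29 without and -2.77 after infarction in fibroblasts, -1.75 and -1.70 in endothelial cells, and -1.93 and -1.63 in phagocytes. It was singled out after its values were seen.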
